A study of Homo sapiens with 8 samples.

Results

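The genes of glycolysis, gluconeogenesis and glucose transport were followed in HepG2 cells, an established human line from a hepatocellular carcinoma that stands in for hepatocytes. The set holds 34 genes chosen by symbol for their place in the pathway, with earlier results of these data known. All 34 had a row among the 20897 genes of the files. Of these, 33 passed the filter on low values and were tested, and LDHB, the other main lactate dehydrogenase subunit beside LDHA, was listed at 0 in all 8 libraries. PolyA RNA was sequenced after 18 h of treatment with genistein (n = 3), with BMP6 at 50 ng/ml (n = 2) or with vehicle alone (DMSO, n = 3). Genistein is a soy isoflavone that inhibits tyrosine kinases, and BMP6 is a bone morphogenetic protein through which liver cells sense iron load. The genistein dose was 10 micromolar in the series design, but the protocol gives that number with millimolar as its unit, and which holds is not known. All cells had been grown in 10% serum, were moved to 1% serum 24 h after plating, rested for 8 h, and carried 1% DMSO in every group. The cells were tumour cells in low serum, and per the design text each library is a separate biological replicate.

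Glycolysis splits glucose to pyruvate, which a cell either reduces to lactate or burns in mitochondria. Liver cells can also run the route backwards: gluconeogenesis uses its own enzymes at the irreversible steps and ends with glucose-6-phosphatase, which lets the liver release glucose to blood. Many steps are served by isozymes, with a liver form kept in normal hepatocytes and other forms common in growing or oxygen-starved cells, and liver tumours often change the balance between them.

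Values are FPKM (fragments counted per gene, scaled for transcript length and for sequencing yield), and the authors' files gave no read counts, so the depth of each library is unknown. FPKM is relative to all other transcripts, and in bulk RNA fewer cells of a kind and less RNA per cell cannot be told apart. Summed FPKM ranged from 1860427 to 2846743 in genistein, was 1704599 and 3105197 in BMP6 1 and BMP6 2, and ranged from 1851985 to 2356530 in DMSO. The BMP6 pair correlated at 0.847 across tested genes, below every pair within genistein (0.913 to 0.960) and within DMSO (0.884 to 0.963). Neither BMP6 library was closest to its partner: BMP6 1 had its highest correlation with genistein 3 (0.889), and BMP6 2 with DMSO 3 (0.912). Genistein 2 and DMSO 1 listed the most genes at 0 (10364 and 9806, against 8347 to 8997 in the other libraries). All 10 hepatocyte markers had a value, summing to 134012 to 215327 FPKM in genistein, 205765 to 226164 in BMP6 and 178610 to 222921 in DMSO, and 1 of the 10, TTR, fell after genistein (log2 change -2.64, limma adjusted p = 0.0193). Several markers of other cells were listed at 0 in all libraries, among them COL1A1, COL1A2, COL3A1, LUM and DCN (5 of 7 fibroblast markers), PTPRC, CSF1R, CD163 and TYROBP (4 of 7 leukocyte markers), and CFTR (1 of 6 cholangiocyte markers). The fibroblast list had values for PDGFRB and ACTA2. It summed to 139 to 179 FPKM in genistein, 149 to 261 in BMP6 and 253 to 265 in DMSO, with 0 calls by limma. The cholangiocyte list as a whole summed to 936 to 1496 FPKM in genistein, 2867 to 3644 in BMP6 and 1671 to 2343 in DMSO, with SPP1 called higher after BMP6 and SOX9 lower after genistein. The leukocyte list summed to 1242 to 1955 FPKM in genistein, 1562 to 2401 in BMP6 and 3250 to 4859 in DMSO, with LYZ called lower and CD68 higher after genistein (limma). Their part in the results on glycolysis was not tested.

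The set spanned levels from 0 to 16376 FPKM, and the highest means over the 8 libraries were those of GAPDH, ALDOA, ENO1 and LDHA. GAPDH, which oxidises glyceraldehyde 3-phosphate, averaged 7495 ± 1932 FPKM in genistein (SD, n = 3), 11114 ± 7442 in BMP6 (SD, n = 2) and 6749 ± 2582 in DMSO (SD, n = 3). ALDOA, the aldolase of muscle and most tissues, followed with 3387 ± 845 FPKM in genistein, 7245 ± 4449 in BMP6 and 3128 ± 1016 in DMSO. ENO1, the ubiquitous enolase, had 2332 ± 318 FPKM in genistein, 5412 ± 2014 in BMP6 and 1879 ± 988 in DMSO. GAPDH lay above ALDOA in each library, and in DMSO their ranges did not overlap, whereas those of ALDOA and ENO1 did. At the low end, HK1, PFKM, FBP1, PFKFB3, PFKP and PFKFB2 each averaged below 10 FPKM over the 8 libraries.

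**Figure D1:**
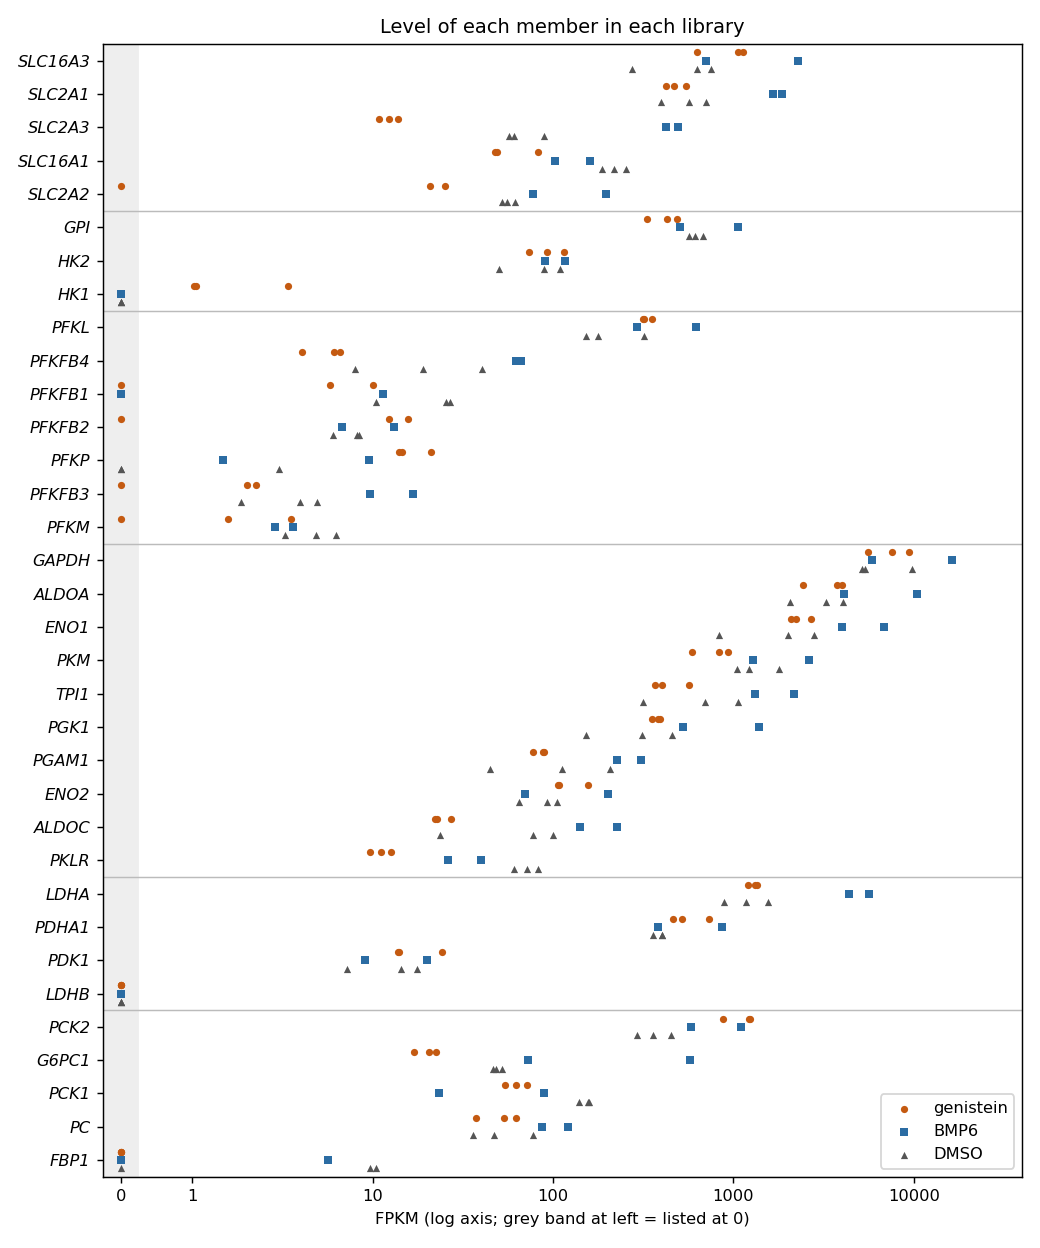
FPKM of the 34 genes in each library on a log axis, with the groups in the order genistein, BMP6 and DMSO; values listed at 0 are drawn in the grey band at the left. GAPDH stands at the top in every library, and LDHB is at 0 in all 8.

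After BMP6, more members stood above DMSO than below it, although a single member passed the test. The members were chosen with earlier results of these data known. Their shares in each comparison are therefore descriptions and no independent test of the set. SLC2A3 was the 1 member of 33 that rose (3.03%), against 0.34% of all 12661 tested genes, and 0 members fell, against 0.498% of all genes (limma, Benjamini-Hochberg adjusted p below 0.05). At an unadjusted p below 0.05 (limma), 14 of 33 members were higher and 2 were lower, against 1053 and 1335 of the 12661 tested genes. Both BMP6 libraries lay above all 3 DMSO libraries for 15 of 33 members (45.5%), against 16.1% of all tested genes, and below all 3 for 3 members (9.09%), against 17.3%. The 15 were SLC2A1, SLC2A2, SLC2A3, PFKFB3, PFKFB4, ALDOA, ALDOC, TPI1, PGK1, PGAM1, ENO1, LDHA, PC, PCK2 and G6PC1, and the 3 were SLC16A1, PKLR and PCK1. The median log2 change over the members was 1.05, against -0.03 over all genes. Positive changes were found in 26 of 33 members (78.8%), against 48.4% of all genes. These counts of libraries use unscaled FPKM. With median-of-ratios scaling the count above DMSO was 20, against 18.6% of all genes, and below it 3, against 19.6%. Without BMP6 1 the count above DMSO was 24, against 41.3% of all genes, and without BMP6 2 it was 17, against 27.1%. The median log2 change over the members was 1.22 without BMP6 1 and 0.57 without BMP6 2, each with 1 BMP6 library left. Among the fits that left out 1 library but kept both BMP6 libraries, those without DMSO 2, DMSO 3 or genistein 3 called 0 members higher. All genes called higher then numbered 3, 9 and 6 in that order, against 43 with all libraries.

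After genistein, members moved in both directions at about the share of all genes. PFKP and PCK2 rose (2 of 33, 6.06%, against 6.11% of all genes), and SLC2A3, SLC16A1 and PKLR fell (3 of 33, 9.09%, against 5.96%) by the same limma test. The median log2 change was -0.26 over the members and 0.05 over all genes. All genistein libraries lay above all DMSO libraries for 5 members (15.2%, against 23.3% of all genes), namely HK1, PFKP, ENO2, PDHA1 and PCK2. HK1 is no evidence in that count, since it reached the tested genes only through its genistein values and was listed at 0 elsewhere. Among members with a mean of at least 5 FPKM the count was 4 of 30, against 25.3% of all such genes. The genistein libraries lay below for 10 (30.3%, against 20.6%), namely SLC2A2, SLC2A3, SLC16A1, GPI, PFKFB1, PFKFB4, PKM, PKLR, PCK1 and G6PC1. Without DMSO 3 the count above was 11, against 29.4% of all genes. Members called higher numbered 1 without DMSO 2, where 114 of all 12661 genes were called higher. They numbered 0 without any other single DMSO or genistein library, where 128 to 428 of all genes were. Members called lower numbered 6 without DMSO 1, where 603 of all genes were called lower. With only the 2 groups compared they numbered 5, where 1331 of all genes were.

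Set directly against BMP6, genistein left 0 members higher (0.64% of all genes were) and 2 lower, SLC2A3 and PFKFB4 (6.06% of 33, against 0.75%, limma). Each genistein library was below both BMP6 libraries for 18 of 33 members (54.5%), against 12.6% of all genes, and above both for HK1 and PFKP alone (6.06%, against 16.3%), where HK1 again was fixed by the filter on low values. Without BMP6 2 the count above was 7, against 49% of all genes. The members called lower numbered 4 without DMSO 1, where 112 of all genes were called lower. They numbered 1 (SLC2A3) without DMSO 2 or any single genistein library, where 21 to 39 of all genes were. The median log2 difference was -1.02 over the members and 0.12 over all genes. The comparisons share libraries, so their member values stand side by side and were not correlated with each other.

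**Figure D2:**
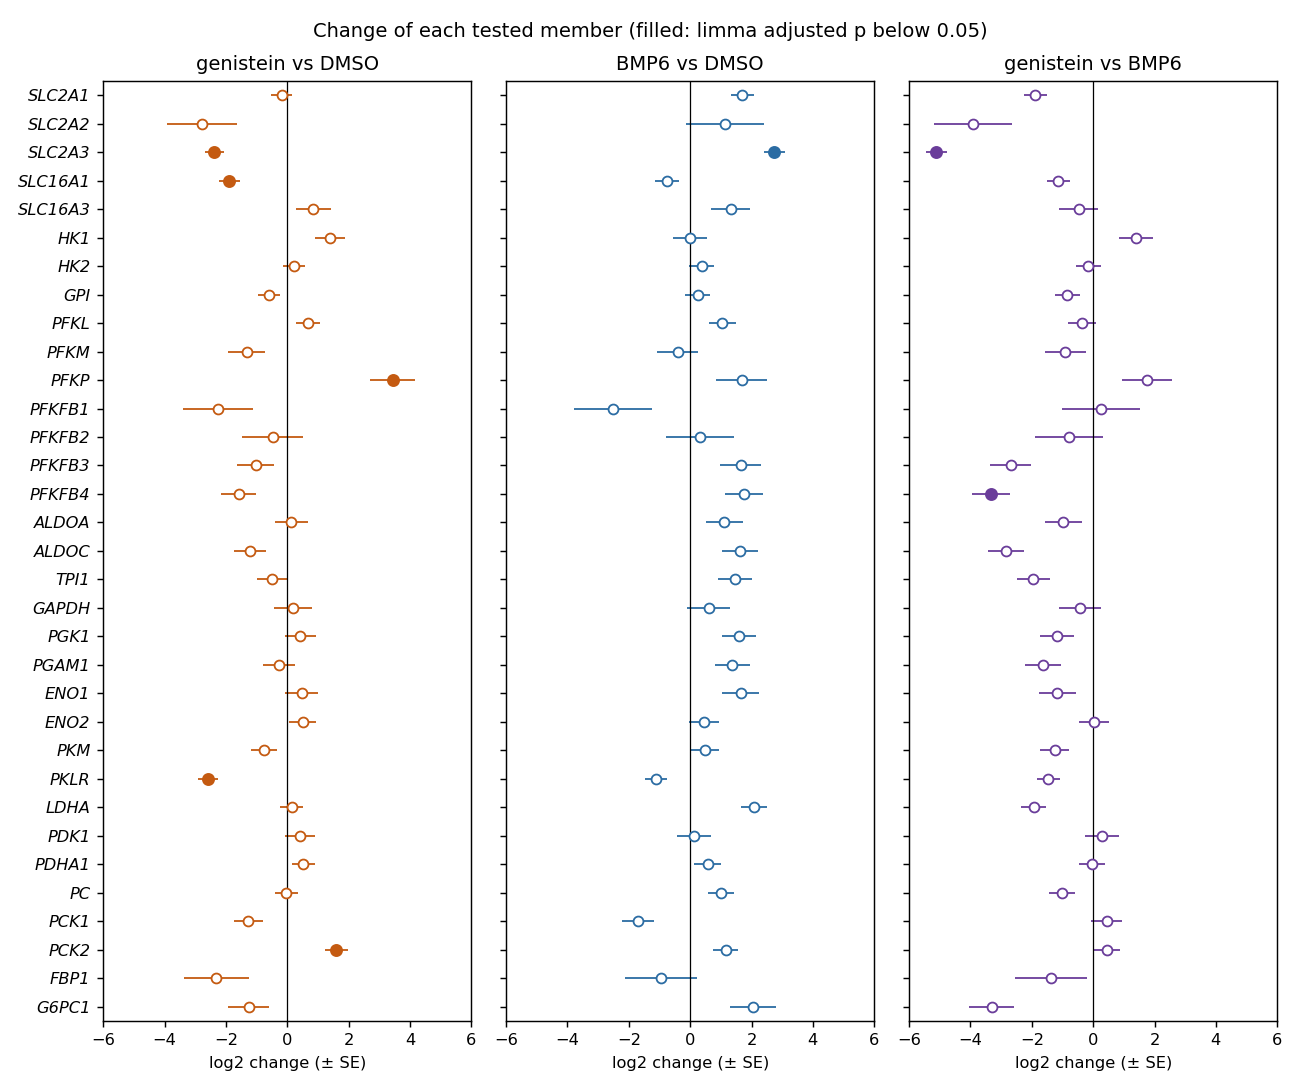
Log2 differences on the log2(FPKM + 1) scale with limma standard errors for the 33 tested members, for each treatment against DMSO and for genistein against BMP6; filled points passed an adjusted p of 0.05. The members that passed were 5 after genistein, 1 after BMP6 and 2 between the treatments.

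Of the glucose carriers, SLC2A3 moved in opposite directions under the treatments. SLC2A3 (ENSG00000059804; hg18, chromosome 12, 7963094 to 7982246) encodes GLUT3, a high-affinity glucose transporter best known from neurons and tumours. Its level was 12.2, 10.8 and 13.9 FPKM in the genistein libraries, against 495 and 424 FPKM in BMP6 and 89.0, 60.9 and 56.9 FPKM in DMSO. The groups did not overlap: BMP6 was highest and genistein lowest in every pairing of libraries. On the log2 scale SLC2A3 fell by 2.37 ± 0.30 (SE) with genistein (limma adjusted p = 0.00586), a call kept in all 16 alternative settings (adjusted p 0.000144 to 0.0376 by limma). It rose by 2.74 ± 0.34 after BMP6 (limma adjusted p = 0.0198), and here 9 of the 16 alternatives kept the call (limma adjusted p 0.0116 to 0.141). Leaving out DMSO 2, DMSO 3, genistein 3 or BMP6 1 ended the call, with limma adjusted p of 0.118, 0.0654, 0.0534 and 0.0639 in that order. Genistein against BMP6 differed by -5.12 ± 0.34 (limma adjusted p = 0.00086), the second smallest p among the 95 genes lower in that comparison, and the call was kept in all 16 alternatives. SLC2A14, a near-identical copy whose reads the counting could share with SLC2A3, had 2.93, 0 and 2.98 FPKM in genistein, 108 and 96.5 in BMP6, and 56.4, 18.6 and 17.7 in DMSO.

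The other carriers are described with their values, since several were picked out after these had been seen. SLC2A1, the widely expressed basal transporter GLUT1, had 466, 420 and 542 FPKM in genistein, 1859 and 1659 in BMP6, and 703, 394 and 563 in DMSO. Both BMP6 libraries were above all others, by 1.70 ± 0.37 (log2, SE) against DMSO, and limma gave an adjusted p = 0.0787 that missed the threshold. SLC2A2, the low-affinity GLUT2 of normal liver and pancreatic beta cells, had 20.8, 0 and 25.1 FPKM in genistein, 197 and 77.6 in BMP6, and 52.4, 55.2 and 61.1 in DMSO. All genistein libraries were below DMSO and both BMP6 libraries above it, and 0 of the 3 comparisons passed (limma adjusted p 0.144 to 0.648).

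**Figure D3:**
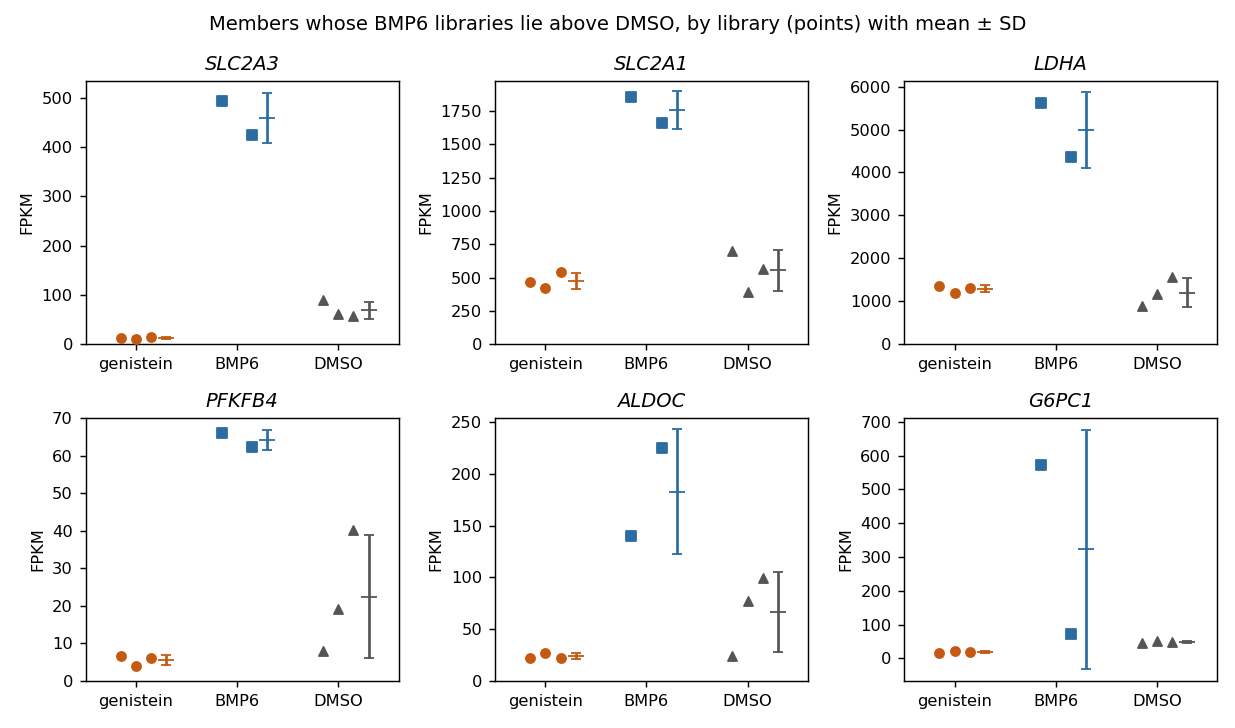
FPKM per library of SLC2A3, SLC2A1, LDHA, PFKFB4, ALDOC and G6PC1, with points for libraries and bars for the mean ± SD of each group, in the order genistein, BMP6 and DMSO. In each panel both BMP6 points lie above all DMSO and genistein points, and the G6PC1 pair is spread between 72.7 and 573 FPKM.

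Lactate leaves or enters cells through monocarboxylate carriers, and the import-capable form fell after genistein. SLC16A1 (ENSG00000155380; hg18, chromosome 1, 113255997 to 113300498), which encodes MCT1, had 48.9, 47.8 and 82.4 FPKM in genistein, 160 and 103 in BMP6, and 253, 218 and 186 in DMSO. Every treated library lay below every DMSO library. On the log2 scale SLC16A1 fell by 1.89 ± 0.34 (SE) with genistein (limma adjusted p = 0.0142). The limma adjusted p ranged from 0.00059 to 0.0666 over the 16 alternatives, of which 12 kept the call, and leaving out DMSO 2, genistein 1 or genistein 2 ended the call (0.0566 to 0.0666). The change after BMP6 was -0.76 ± 0.38 (limma adjusted p = 0.314). SLC16A3, the exporter MCT4, had the highest mean of the carriers over all 8 libraries and in genistein, whereas SLC2A1 had the higher mean in BMP6 and, by under 2 FPKM, in DMSO. SLC16A3 was at 1128, 1062 and 628 FPKM in genistein, 705 and 2267 in BMP6, and 275, 626 and 755 in DMSO. In unscaled FPKM all 3 groups overlapped, and SLC16A3 passed in 0 of 3 comparisons (limma adjusted p 0.304 to 0.798). With median-of-ratios scaling it was at 968 and 1903 in BMP6, above the DMSO range of 332 to 676. SLC16A1 made up 4.16%, 4.31% and 11.6% of the summed FPKM of both carriers in genistein, 18.5% and 4.34% in BMP6, and 47.9%, 25.8% and 19.8% in DMSO.

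Hexokinases trap glucose in the cell, and 0 of the 3 members of this step passed in any comparison. HK2, the hexokinase induced in many tumours, ranged from 73.3 to 114 FPKM in genistein, from 89.7 to 117 in BMP6 and from 50.2 to 109 in DMSO, so the groups overlapped. HK1, the housekeeping form, was at 1.05, 3.38 and 1.02 FPKM in genistein and was listed at 0 in both BMP6 and all 3 DMSO libraries. No member had a FAIL status, but an exact 0 need not mean absence and allows no fold. HK1 missed the threshold after genistein (limma adjusted p = 0.107). GPI, which turns glucose 6-phosphate into fructose 6-phosphate, had 484, 428 and 330 FPKM in genistein, 507 and 1059 in BMP6, and 563, 608 and 681 in DMSO. All genistein libraries were below all DMSO libraries, by a log2 change of -0.59 ± 0.36 that limma did not call (adjusted p = 0.310).

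At phosphofructokinase, the committed step of glycolysis, the platelet isozyme rose after genistein. PFKP (ENSG00000067057; hg18, chromosome 10, 3099740 to 3169762) had 21.0, 13.9 and 14.6 FPKM in genistein, 1.48 and 9.51 in BMP6, and 0, 3.03 and 0 in DMSO. All 3 genistein libraries lay above all others. Since PFKP was listed at 0 in DMSO 1 and DMSO 3, the size of its change depends on the pseudocount. The log2 change was 3.44 ± 0.74 (limma adjusted p = 0.0244), and it was 1.86 with a pseudocount of 5 and 5.69 with 0.1. Of the settings tried, 11 of 16 alternatives kept the call (limma adjusted p 0.013 to 0.0848), and it was lost when DMSO 1, DMSO 3 or any single genistein library was left out (0.0668 to 0.0848). PFKL, the liver isozyme, remained the main form with 353, 320 and 315 FPKM in genistein, 291 and 619 in BMP6, and 152, 178 and 318 in DMSO. Its groups overlapped in unscaled FPKM, and 0 of 3 comparisons passed (limma adjusted p 0.260 to 0.775). With median-of-ratios scaling PFKL was at 399 and 520 in BMP6, above the DMSO range of 173 to 284. PFKM, the muscle isozyme, did not exceed 6.22 FPKM in any library. PFKP made up 4.17% to 5.59% of the 3 isozymes in genistein, 0.501% and 1.50% in BMP6, and 0% to 1.65% in DMSO.

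The bifunctional PFKFB enzymes make and remove fructose 2,6-bisphosphate, the strongest activator of phosphofructokinase. PFKFB4 (ENSG00000114268; hg18, chromosome 3, 48530130 to 48569231), a hypoxia-inducible form, had 6.58, 4.05 and 6.13 FPKM in genistein, 66.1 and 62.2 in BMP6, and 7.99, 19.0 and 40.2 in DMSO. BMP6 was above and genistein below all DMSO libraries, while the DMSO libraries themselves were widely spread. Genistein and BMP6 differed by -3.33 ± 0.62 (log2, SE; limma adjusted p = 0.0475). Only 5 of 16 alternatives kept this call (limma adjusted p 0.0199 to 0.242). Leaving out DMSO 2 or any single genistein or BMP6 library ended it (0.0663 to 0.151), as did a pseudocount of 0.1 (0.0709), no filter (0.0540), the 2 groups alone (0.0577) and array weights (0.242). PFKFB3, a form with high kinase activity, reached 16.7 and 9.68 FPKM in BMP6, and at most 2.27 in genistein and 4.92 in DMSO, with limma adjusted p = 0.239 for BMP6 against DMSO. PFKFB1, the liver form, and PFKFB2, the heart form, did not exceed 26.8 FPKM in any library and were listed at 0 in genistein 2 (PFKFB1 also in BMP6 1), and 0 comparisons called either of them.

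From aldolase to pyruvate kinase, 6 of the 10 members (60%) had both BMP6 libraries above DMSO, against 16.1% of all genes, and 0 of the 10 were called after BMP6, where 0.34% of all genes were called higher and 0.498% lower. ALDOC, the aldolase of brain, had 22.6, 27.2 and 22.1 FPKM in genistein, 140.1 and 226 in BMP6, and 23.7, 77.0 and 99.2 in DMSO. It was above every other library in both BMP6 libraries, with a log2 change of 1.63 ± 0.59 against DMSO (limma adjusted p = 0.200) and a difference of -2.84 ± 0.59 for genistein against BMP6 (limma adjusted p = 0.0638). GAPDH itself had 9415, 7518 and 5551 FPKM in genistein, 5852 and 16376 in BMP6, and 5150, 5371 and 9728 in DMSO. The BMP6 libraries of GAPDH differed by 2.80-fold, and all 3 groups overlapped. PGK1, the first step that yields ATP, had 1381 and 522 FPKM in BMP6, against 153, 313 and 455 in DMSO. Here it was BMP6 1 that was higher, so the BMP6 pair was not ordered alike across members. TPI1, the triose isomerase, had 1319 and 2151 FPKM in BMP6 and 316 to 1053 in DMSO. PGAM1, the phosphoglycerate mutase, had 227 and 309 FPKM in BMP6 and 44.8 to 208 in DMSO, and PGAM1P10, which could share its reads, had 248 and 269 in BMP6 and 28.3 to 139 in DMSO. ENO2, the enolase of neurons, had 106 to 157 FPKM in genistein and 64.6 to 105 in DMSO, with limma adjusted p = 0.473. For the 9 members of this stretch other than PKLR, limma called 0 differences in any comparison.

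Pyruvate kinase closes glycolysis, and its liver form fell after genistein. PKLR (ENSG00000143627; hg18, chromosome 1, 153526254 to 153537843), the isozyme of liver and red cells, had 11.2, 12.6 and 9.62 FPKM in genistein, 26.0 and 39.9 in BMP6, and 82.3, 71.9 and 60.5 in DMSO. The 3 groups did not overlap, with genistein lowest and DMSO highest. On the log2 scale PKLR fell by 2.58 ± 0.33 (SE) with genistein (limma adjusted p = 0.00582), and the call was kept in all 16 alternatives (limma adjusted p 0.000125 to 0.0434). After BMP6 the change was -1.12 ± 0.37 (limma adjusted p = 0.175), and genistein against BMP6 gave -1.46 ± 0.37 (limma adjusted p = 0.110). HCN3, whose row overlaps that of PKLR, had 6.25, 2.98 and 4.64 FPKM in genistein, 7.40 and 22.8 in BMP6, and 10.6, 18.7 and 15.8 in DMSO. PKM, the form of most other tissues and of tumours, was far more abundant with 832, 937 and 592 FPKM in genistein, 1289 and 2618 in BMP6, and 1799, 1218 and 1041 in DMSO. All genistein libraries of PKM lay below all DMSO libraries, without a call (limma adjusted p = 0.258). PKLR made up 1.32% to 1.60% of both genes in genistein, 1.98% and 1.50% in BMP6, and 4.37% to 5.57% in DMSO.

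**Figure D4:**
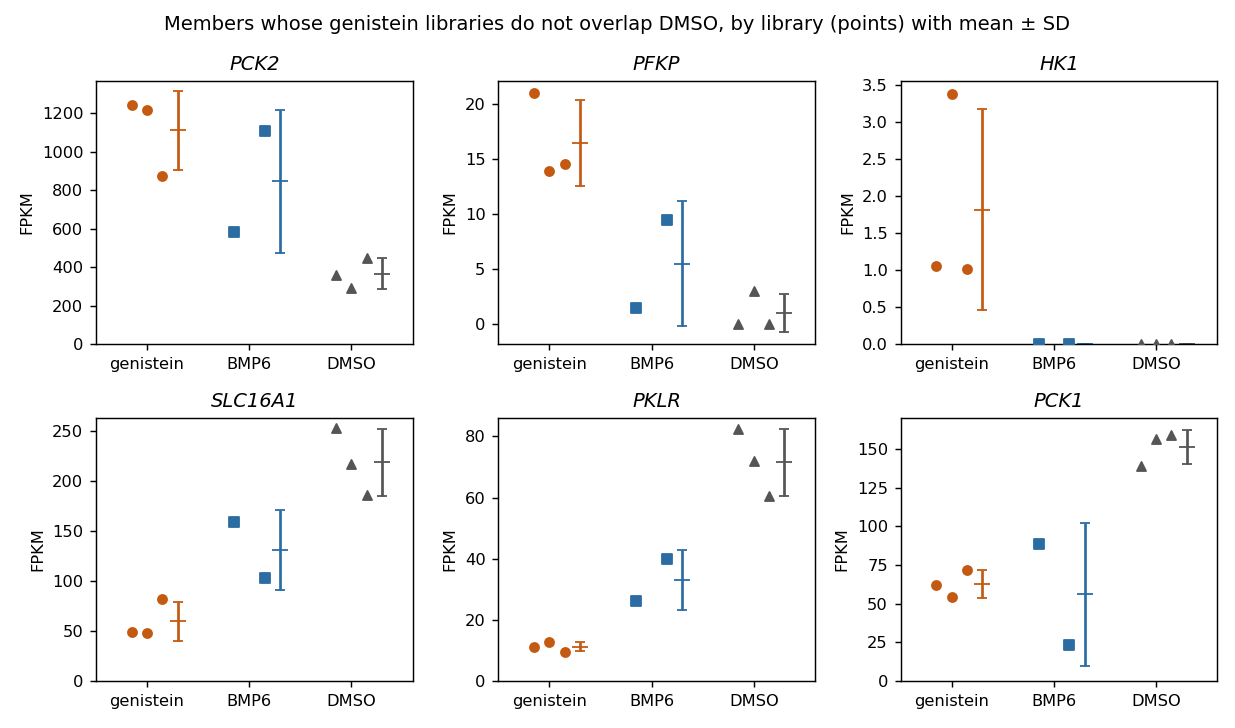
FPKM per library of PCK2, PFKP, HK1, SLC16A1, PKLR and PCK1, with points for libraries and bars for the mean ± SD of each group, in the order genistein, BMP6 and DMSO. Genistein lies above all DMSO libraries for PCK2, PFKP and HK1 and below all of them for SLC16A1, PKLR and PCK1.

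At the branch after pyruvate, LDHA stood out after BMP6 without passing the test. LDHA, which reduces pyruvate to lactate, had 1357, 1201 and 1318 FPKM in genistein, 5619 and 4368 in BMP6, and 881, 1166 and 1554 in DMSO. Both BMP6 libraries were above all others and genistein overlapped DMSO. The log2 change after BMP6 was 2.08 ± 0.42 (limma adjusted p = 0.0676). Over the 16 alternatives the limma adjusted p ran from 0.0283 to 0.255, and 2 of them called LDHA, median-of-ratios scaling and leaving out BMP6 2. PDHA1, a subunit of the pyruvate dehydrogenase that feeds the mitochondria, had 465 to 727 FPKM in genistein, 380 and 866 in BMP6, and 358 to 403 in DMSO. PDK1, the kinase that switches this enzyme off, ranged from 13.8 to 24.1 FPKM in genistein, was 9.01 and 19.9 in BMP6, and ranged from 7.20 to 17.5 in DMSO, so its groups overlapped. PDHA1 and PDK1 were called in 0 comparisons.

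The promoters of LDHA, PGK1 and ALDOC are shown because BMP6 stood above DMSO for all 3 and they carry more than 1 copy of ACGTG, the core of the hypoxia response element and of E-box-like sites. They were chosen after the values had been seen. Each is the 250 bases before a RefSeq gene start in GRCh38.p14, written 5′ to 3′ on the strand of the gene, and capitals mark ACGTG or CACGT, its reverse complement. A palindromic CACGTG holds both, overlapping. The windows are LDHA at chr11:18394313-18394562 (plus strand), PGK1 at chrX:78103998-78104247 (plus strand) and ALDOC at chr17:28576896-28577145 (minus strand).
LDHA: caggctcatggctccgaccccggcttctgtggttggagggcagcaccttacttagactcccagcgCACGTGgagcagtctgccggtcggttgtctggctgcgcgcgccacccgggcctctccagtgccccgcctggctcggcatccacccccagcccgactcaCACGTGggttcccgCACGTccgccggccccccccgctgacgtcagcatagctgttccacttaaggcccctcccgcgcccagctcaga
PGK1: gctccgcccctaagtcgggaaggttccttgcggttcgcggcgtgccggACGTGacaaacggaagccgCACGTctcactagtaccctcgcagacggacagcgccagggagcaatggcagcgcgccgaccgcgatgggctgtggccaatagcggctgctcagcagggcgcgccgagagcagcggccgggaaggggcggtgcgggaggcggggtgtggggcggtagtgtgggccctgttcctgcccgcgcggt
ALDOC: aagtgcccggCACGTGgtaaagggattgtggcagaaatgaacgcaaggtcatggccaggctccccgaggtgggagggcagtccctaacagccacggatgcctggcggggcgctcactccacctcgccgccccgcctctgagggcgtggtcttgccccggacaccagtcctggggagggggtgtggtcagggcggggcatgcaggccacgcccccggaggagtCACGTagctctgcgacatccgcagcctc
RefSeq windows were matched for 30 of the 34 members, 60 windows in all. ACGTG, on either strand, was found in 20 of these 60 windows (33.3%) and in 18.5% of all 35116 windows. The 20 windows belonged to 17 of the 30 genes, against 21.7% of all 27305 genes with windows. Members had more windows per gene than all genes, so the shares per gene are not like for like. Of the members with BMP6 above DMSO, the 17 included LDHA, PGK1, ALDOC, ALDOA, TPI1, G6PC1, PC and PFKFB3. They did not include SLC2A1, SLC2A2, SLC2A3, PFKFB4, PGAM1, ENO1 and PCK2, and some of the 34 members had no window. The windows of SLC2A1 and PFKFB4 did not hold these letters. The rest of the 17 were GAPDH, GPI, HK2, ENO2, PDK1, PFKM, PFKP and SLC16A3, whose BMP6 and DMSO libraries overlapped in unscaled FPKM, and PKLR, which was below DMSO. With median-of-ratios scaling the BMP6 libraries of GPI, ENO2 and SLC16A3 lay above DMSO. TGATGNAA, the C/EBP-ATF response element, on either strand, was found in 3 of 60 member windows (5%, those of G6PC1 and HK1) and in 3.14% of all windows. GGCGCC, a GC-rich SMAD site that is its own reverse complement, was found in 16 of 60 member windows (26.7%) and in 16.4% of all. A match is a description of the letters and was not tested for binding.

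Gluconeogenesis starts with carboxylation of pyruvate and its conversion to phosphoenolpyruvate, and the mitochondrial enzyme of that step rose after genistein. PCK2 (ENSG00000100889; hg18, chromosome 14, 23633323 to 23643179), the mitochondrial phosphoenolpyruvate carboxykinase, had 1240, 1217 and 874 FPKM in genistein, 584 and 1107 in BMP6, and 360, 290 and 449 in DMSO. Every treated library was above every DMSO library. On the log2 scale PCK2 rose by 1.60 ± 0.37 (SE) with genistein (limma adjusted p = 0.0306). Over the 16 alternatives its limma adjusted p ran from 0.00117 to 0.119, 9 of them kept the call, and it was lost without any single genistein or DMSO library (0.0605 to 0.119). After BMP6 the change was 1.16 ± 0.41 (limma adjusted p = 0.197). NRL, whose row overlaps that of PCK2, had 18.3, 38.7 and 9.06 FPKM in genistein, 3.16 and 28.9 in BMP6, and 0, 10.2 and 50.0 in DMSO.

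PCK1, the cytosolic enzyme that hormones control in normal liver, had 62.1, 54.2 and 71.7 FPKM in genistein, 88.6 and 23.3 in BMP6, and 139, 157 and 159 in DMSO. Every treated library was below every DMSO library, with log2 changes of -1.27 ± 0.46 after genistein and -1.70 ± 0.52 after BMP6, and limma gave adjusted p = 0.112 and 0.152. After BMP6 the log2 change of PCK1 was -2.64 without BMP6 1 (limma adjusted p = 0.0475) and -0.76 without BMP6 2, and that p ran from 0.0475 to 0.360 over 16 alternatives. PCK2 thus made up 95.2%, 95.7% and 92.4% of both genes in genistein, 86.8% and 97.9% in BMP6, and 72.2%, 64.9% and 73.8% in DMSO. The share in each treated library was above that in each DMSO library, as a description with no test.

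G6PC1, the catalytic subunit of glucose-6-phosphatase, had 16.9, 22.4 and 20.6 FPKM in genistein, 573 and 72.7 in BMP6, and 46.2, 52.1 and 48.3 in DMSO. Genistein was below and BMP6 above all DMSO libraries, but the BMP6 pair differed by 7.88-fold, and the log2 change after BMP6 of 2.05 ± 0.73 missed the threshold (limma adjusted p = 0.197). The size rested on BMP6 1: without BMP6 2 the log2 change was 3.53 (limma adjusted p = 0.0239), and without BMP6 1 it was 0.57 (limma adjusted p = 0.455). Over all 16 alternatives that p ran from 0.0239 to 0.455. FBP1, fructose-1,6-bisphosphatase, was listed at 0 in all 3 genistein libraries, at 0 and 5.65 FPKM in BMP6, and at 0, 9.67 and 10.4 FPKM in DMSO, and limma called 0 differences. PC, pyruvate carboxylase, had 37.4 to 62.6 FPKM in genistein, 86.4 and 121 in BMP6, and 35.9 to 77.6 in DMSO, with limma adjusted p = 0.261 for BMP6 against DMSO. The rows of PC and of TPI1 also overlap other genes, LRFN4 and SPSB2, each at most 35.0 FPKM in any library.

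Seen as a share of each library, the set took 0.846%, 0.892% and 0.889% of all FPKM in genistein, 1.77% and 1.70% in BMP6, and 0.784%, 0.806% and 1.07% in DMSO. Both BMP6 libraries were above the others although their FPKM totals were the lowest and the highest of the 8. Among the glucose carriers, SLC2A3 made up 2.39% to 2.50% of the sum of SLC2A1, SLC2A2 and SLC2A3 in genistein, 19.4% and 19.6% in BMP6, and 8.36% to 11.9% in DMSO. In unscaled FPKM, the BMP6 pair was close for this share and for the levels of PFKFB4 (1.06-fold), SLC2A1 (1.12-fold), SLC2A3 (1.17-fold) and LDHA (1.29-fold). The pair was far apart for PFKP (6.43-fold, BMP6 2 higher), PCK1 (3.80-fold, BMP6 1 higher) and SLC16A3 (3.22-fold, BMP6 2 higher). Which levels were close depended on the scaling. The median-of-ratios size factors were 0.728 for BMP6 1 and 1.19 for BMP6 2. After that scaling the pair had 679 and 356 for SLC2A3 and 7715 and 3668 for LDHA. It then had 1811 and 1806 for TPI1 and 192 and 189 for ALDOC.

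**Figure D5:**
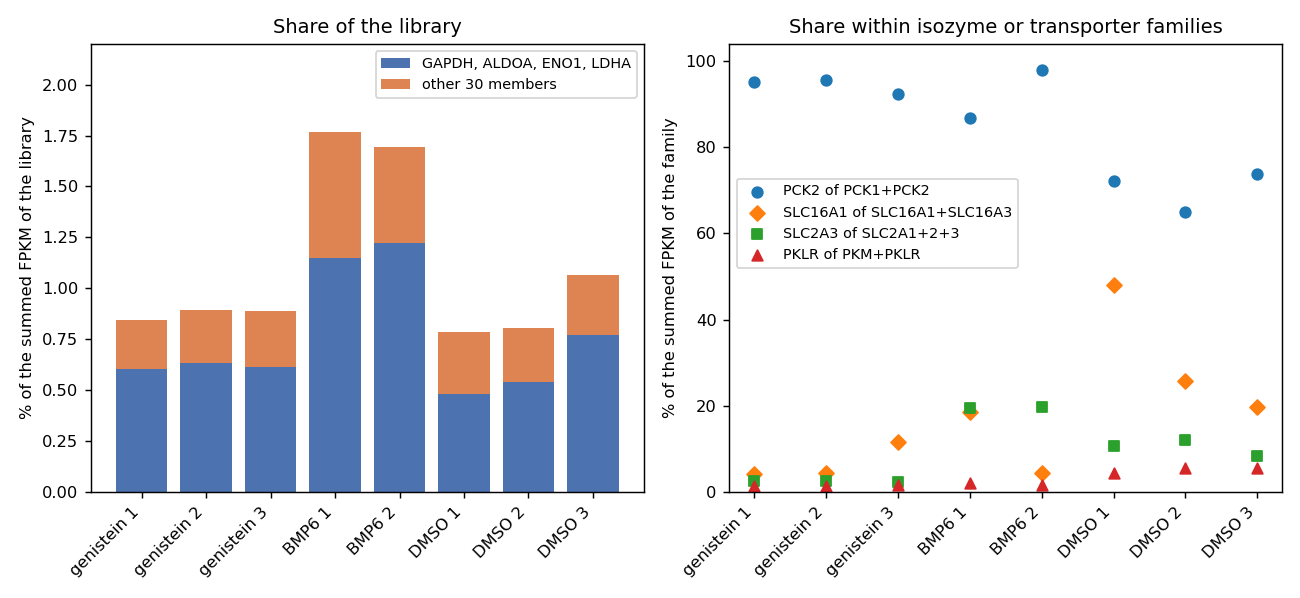
Percent of summed FPKM taken by the set in each library, as stacked bars from 0 that set the sum of GAPDH, ALDOA, ENO1 and LDHA apart from the other 30 members, and the percent shares of PCK2, SLC16A1, SLC2A3 and PKLR within their isozyme or carrier groups, in the order genistein, BMP6 and DMSO. The set takes 1.77% and 1.70% in BMP6, and at most 0.892% in genistein and 1.07% in DMSO.

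Genes beside the set were counted from 6 further lists, chosen for their place in sugar metabolism, also with earlier results of these data known. Their counts after genistein are to be read against 6.11% higher and 5.96% lower among all tested genes. After genistein, 2 of 36 tested genes of other glycolysis and pyruvate steps rose (5.56%) and 5 fell (13.9%). Those with the smallest p included GOT1 (log2 change 2.31, limma adjusted p = 0.0108), an aspartate aminotransferase of the malate-aspartate shuttle, and GCKR (1.85, limma adjusted p = 0.0177), the glucokinase regulator. LDHD, a D-lactate dehydrogenase, fell by 2.02 (limma adjusted p = 0.0271), and MPC2, a subunit of the mitochondrial pyruvate carrier, fell by 1.83 (limma adjusted p = 0.0394). In glycogen metabolism 1 of 19 rose (5.26%) and 3 fell (15.8%): PYGB, the brain phosphorylase, rose by 1.84 (limma adjusted p = 0.0389), whereas PYGL, the liver phosphorylase, fell by 2.30 (limma adjusted p = 0.00831). PPP1R3D, a targeting subunit of the glycogen phosphatase, fell by 2.61 (limma adjusted p = 0.0191) and GYS1, the muscle-type glycogen synthase, fell by 1.70 (limma adjusted p = 0.0256). Of 12 fructose, galactose and polyol genes, 1 rose (8.33%) and 3 fell (25%). GFPT1, the first enzyme of the hexosamine route, rose by 1.09, and TKFC, SORD and GALK1 fell with log2 changes of -2.33, -1.65 and -1.90 (limma adjusted p 0.0159 to 0.0430). PRPS1, which makes phosphoribosyl pyrophosphate, rose by 1.26 as 1 of 11 (9.09%) in the pentose phosphate list, and IDH3A, a subunit of isocitrate dehydrogenase, rose by 1.59 as 1 of 16 (6.25%) in the tricarboxylic acid cycle list, with 0 falling in either (limma adjusted p = 0.0315 and 0.0382).

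Of 34 tested regulators, 4 rose (11.8%, against 6.11% of all genes) and 1 fell (2.94%, against 5.96%) after genistein. TRIB3, a pseudokinase induced by nutrient stress, rose by 3.37 (limma adjusted p = 0.0150), and MLXIP, a glucose-sensing transcription factor, rose by 1.68 (0.0306). PRKAA2, a catalytic subunit of AMP-activated kinase, rose by 1.45 (limma adjusted p = 0.0315), and INSR, the insulin receptor, fell by 1.32 (limma adjusted p = 0.0243). After BMP6, limma called 0 genes in each of the 6 lists. At an unadjusted p below 0.05 (limma), 10 of their 128 tested genes were higher and 12 lower, against 1053 and 1335 of all 12661 genes. Between the treatments, GCKR was higher after genistein by 2.90 (limma adjusted p = 0.0165), and so was HKDC1, a hexokinase-like protein, by 2.07 (limma adjusted p = 0.0445). No other gene of the 6 lists was called there.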

How the data were processed

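Each file holds 1 FPKM value per Ensembl gene and library, deposited by the authors, beside an interval and a quality flag, per the file headers. The submitters' processing notes name Cufflinks 1.0.3 and Cuffdiff with TopHat 1.1.0 and Bowtie, on hg18; settings and scaling are not given in the sources used here. Depth is unknown, no member had a FAIL status, and no floors were computed. The 12661 of 20897 genes that reached 1 FPKM in 2 or more libraries entered limma 3.58.1 (R 4.3.3) on log2(FPKM + 1) with an intensity trend, all 8 libraries in 1 fit. P-values (two-sided) were adjusted after Benjamini and Hochberg across the 12661 genes, with 0.05 as the threshold. Fold changes on this scale understate the change of low genes. Replicates were the libraries of the sample titles.

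The members and lists were chosen with earlier results of these data known. Full values are given for members past the threshold, members at 0 in 1 or more whole groups, and the most abundant member of each of 6 roles; other members named in detail were picked after their values were seen. In the other lists up to 4 called genes of smallest p are named. Symbols were matched to 19069 gene IDs. Starts were converted to count from 1, which made 270 of 316 spans of olfactory receptor genes divisible by 3. Other pseudocounts, filters, scalings and sample sets were tried, and the test was checked on simulated data.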

Additional observations from a re-analysis of the deposited data

How the results depend on the processing

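Depth is unknown, FPKM is relative to the rest of each library, and BMP6 has 2 libraries that stand apart. No member had a FAIL status, but a listed 0 need not mean absence. Low members such as HK1, FBP1 and PFKP are thus the least certain. No called member value changed sign in 17 settings. Of 1674 recomputed values, 55 that were not called changed sign, all with a log2 change of at most 0.94 in size. PKLR and SLC2A3 after genistein, and SLC2A3 between the treatments, kept their calls in the 16 alternative settings.

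Genes called after genistein (773 higher, 754 lower; members 2 and 3) numbered 1285 and 1331 (members lower 5) with only the 2 groups compared. With array weights, whose estimation stopped before convergence, they numbered 2603 and 2780 (members 4 and 10), and median-of-ratios scaling gave 1312 lower. That scaling moved the median of all genes by -0.10 after genistein, 0.05 after BMP6 and -0.15 between the treatments. Genes called after BMP6 (43 and 63) numbered 66 and 118 with a pseudocount of 5, 22 and 16 with a mean of at least 5 FPKM, 157 and 225 with median-of-ratios scaling (members higher 2), 6 and 7 with the 2 groups alone, and 4 and 4 with array weights (members higher 0 in both), and 99 were lower with no filter. Between the treatments (81 and 95), 125 were higher with a pseudocount of 5 and 60 lower with a mean of at least 5 FPKM. With that filter the libraries of 1 of 30 members lay above, against 17.4% of all such genes. Median-of-ratios scaling gave 156 and 261, the 2 groups alone 33 and 48, and array weights 22 and 16. Members called lower there numbered 1 with a pseudocount of 0.1, 4 with 5, 1 with no filter, 6 with median-of-ratios scaling, and 1 with the 2 groups alone or array weights.

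Deviations from the group mean correlated at -0.247 to 0.286 between same-numbered libraries and at -0.594 to 0.594 between others. Deviations within a group sum to 0, so those of the BMP6 pair mirror each other. These values therefore cannot tell whether the numbers pair the libraries. With the replicate block the calls were 176 higher and 238 lower after genistein (members higher 1), 3 and 1 after BMP6 (members higher 0), and 3 and 4 between the treatments (members lower 1). The block gave limma adjusted p = 0.102 for PCK2, 0.0553 for SLC16A1 after genistein, 0.141 for SLC2A3 after BMP6, and 0.132 for PFKFB4 between the treatments.

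Leaving out 1 library at a time gave 114 to 1286 higher and 130 to 1334 lower genes after genistein (members 0 to 2 and 2 to 6, with 5 to 11 whose libraries lay above). After BMP6 it gave 3 to 414 and 2 to 1478 (members 0 to 5 and 0 to 1, 15 to 24 above and 3 to 6 below, median 0.57 to 1.29). Between the treatments it gave 27 to 396 and 21 to 144 (members lower 1 to 4, above 2 to 7, median -1.37 to -0.78). Without DMSO 1, genistein 2 and BMP6 1 together, chosen after seeing the data, 1281 genes were lower after genistein (members 1 higher and 10 lower), 147 and 330 changed after BMP6 (1 member lower, 24 above and 6 below, against 45.5% and 37% of all genes), and 376 and 281 between the treatments (6 members lower, 5 above, against 35% of all genes, median -1.40). With 1 library left out, the genistein libraries lay above DMSO for 23.3% to 31.3% of all genes. The BMP6 libraries lay above DMSO for 16.1% to 41.3% and below it for 17.3% to 43.2%. Genistein lay above BMP6 for 16.3% to 49%. The cause of the shifts between settings was not tested.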
